A study of Mus musculus with 8 samples.

Results

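The transcripts described are those of 31 genes of antigen presentation, chosen by name as a list of major histocompatibility complex (MHC) class I genes, genes that make and load class I peptides, and class II genes. All 31 were found among the 52636 genes of each count table, and all 31 passed the filter on low counts. They comprise 11 class I genes, 11 genes of peptide processing and class I assembly, and 9 class II genes. They were measured by RNA-seq in 8 samples labelled as malignant mesothelioma of the mouse, a cancer of the membrane that lines the pleura and other cavities: 2 double knockout samples, in which Nf2 and Cdkn2a were inactivated, and 6 triple knockout samples, in which Bap1 was inactivated as well. Inactivation of Nf2 and Cdkn2a is therefore shared by both groups, and the only comparison is of triple with double knockout samples. The study's title places the tumours in conditional mouse models. The promoter that drove recombination, the mouse strain, the age of the animals and the number of animals or cultures behind the samples are given in none of the sources used here, so p-values measure only the spread between these samples, which may be technical.

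Class I molecules pair a heavy chain with beta-2-microglobulin and carry peptides from the cytosol to the cell surface, where CD8+ T cells read them. The proteasome makes those peptides, the TAP transporter moves them into the endoplasmic reticulum, and a peptide-loading complex of chaperones places them in the groove. Class II molecules carry peptides from endosomes, are guided there by the invariant chain, and are made mainly by macrophages, dendritic cells and B cells, while other cells can make them after exposure to interferon gamma.

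Total counts ran from 26847202 to 32082535 per sample. Transcripts of the targeted genes were present in all samples, and none of the 3 was called different by edgeR: Bap1 stood at 106 and 71.2 CPM, counts scaled to library size, in the double knockouts, against 43.1 to 72.1 CPM in the triple knockouts (adjusted p = 0.122), with adjusted p = 0.103 for Nf2 and 0.306 for Cdkn2a. Double sample 1 stood apart in muscle and mitochondrial transcripts: its 11 adult skeletal muscle markers summed to 67976 CPM, against 2816 CPM in double sample 2 and 134 to 12477 CPM in the triple samples, and mitochondrial transcripts made up 4.04% of its counts, against 1.16% to 2.33% elsewhere. The labels' protocol describes cells kept in culture medium, yet leukocyte transcripts were counted in all 8 samples. Ptprc, the pan-leukocyte surface gene CD45, stood at 25.1 CPM in double sample 1, 114 CPM in double sample 2 and 74.3 to 151 CPM in the triple samples. Of the mesothelial markers, Msln was present at 12.6 to 342 CPM in all 8 samples, while Upk3b stood at 173 CPM in triple sample 3 and at no more than 0.365 CPM in the other 7. In such bulk samples, fewer cells of a type and less RNA per cell cannot be told apart.

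Upstream sequences were searched for elements known to control such genes. RefSeq sequence upstream of the start (GRCm38.p6) was found for 24 of the 31 genes. The 5 stretches below were chosen because they belong to genes that the results turn on: the classical heavy chain H2-K1, its partner B2m, the heavy chain H2-Q6, which varied most among the triple samples, and the class II chains H2-Aa and H2-Eb1. Each ends at or just before the start that RefSeq annotates, which can differ from the gene coordinates of the count tables given further on, holds no base inside those coordinates, is written 5′ to 3′ on the gene's strand, and has in capitals every match, on either strand, to a Y box (ATTGG, bound by NF-Y), an X2 half-site (TGACG, bound by the CREB family), a site for NF-kappaB (GGGNTTNCC), or an interferon-stimulated response element or ISRE (GAAANNGAA).
H2-K1 (chr17:34000348-34000547, minus strand): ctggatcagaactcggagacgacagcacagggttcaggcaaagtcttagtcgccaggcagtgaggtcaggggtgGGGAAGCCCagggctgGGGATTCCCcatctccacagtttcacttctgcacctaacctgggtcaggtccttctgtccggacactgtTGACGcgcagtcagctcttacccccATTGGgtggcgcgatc
B2m (chr2:122147487-122147685, plus strand): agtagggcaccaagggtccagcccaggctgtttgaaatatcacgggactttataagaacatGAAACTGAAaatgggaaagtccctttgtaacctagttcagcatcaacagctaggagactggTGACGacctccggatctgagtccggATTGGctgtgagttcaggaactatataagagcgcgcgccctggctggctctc
H2-Q6 (chr17:35424650-35424849, plus strand): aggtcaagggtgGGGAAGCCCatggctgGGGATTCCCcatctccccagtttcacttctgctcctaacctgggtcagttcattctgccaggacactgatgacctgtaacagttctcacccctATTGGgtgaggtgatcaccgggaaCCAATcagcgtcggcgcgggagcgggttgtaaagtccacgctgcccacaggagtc
H2-Aa (chr17:34287828-34288023, minus strand): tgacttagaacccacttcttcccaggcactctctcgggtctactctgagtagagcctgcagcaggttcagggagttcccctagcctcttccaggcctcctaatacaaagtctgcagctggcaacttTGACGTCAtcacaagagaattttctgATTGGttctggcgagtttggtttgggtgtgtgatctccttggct
H2-Eb1 (chr17:34305667-34305866, plus strand): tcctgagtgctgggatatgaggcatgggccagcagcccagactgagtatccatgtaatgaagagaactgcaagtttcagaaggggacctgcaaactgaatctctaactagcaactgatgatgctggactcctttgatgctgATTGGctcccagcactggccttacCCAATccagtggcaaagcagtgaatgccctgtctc

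In the counts that follow, a gene counted if any of its annotated starts had the match, while the share over all promoters counts each promoter singly. Over the 250 bases before the start, a Y box was present in all 9 class I, 5 of 6 class II and 6 of 9 processing sequences. The share was 33.8% of 32851 RefSeq promoters. The X2 half-site was present in 7 of 9 class I, 1 of 6 class II and 4 of 9 processing sequences, against 17.8%. A match to the NF-kappaB pattern GGGNTTNCC was found in H2-K1, H2-D1, H2-Q4, H2-Q6 and H2-Q7. That is 5 of 9 class I sequences and none of the other 15, against 3.99% of all promoters. A match to the ISRE pattern was found in B2m, H2-T22, H2-T23, Ctss and Erap1, against 7.13% of all promoters. In the stretches printed, H2-K1 and B2m hold a Y box with an X2 half-site upstream of it. H2-K1 and H2-Q6 hold an NF-kappaB match on each strand, and in H2-Aa overlapping half-sites on both strands begin 74 and 71 bases before the start, upstream of the Y box at 48. These matches describe the letters in the window and are not measured binding sites. Each pattern is 1 fixed form of its element, so a sequence without a match can hold another form.

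No member was called different between the triple and double knockout samples. In edgeR's quasi-likelihood test with Benjamini-Hochberg adjustment, 0 of 31 had an adjusted p under 0.05, against 8.35% of the 17709 genes tested. One member, Pdia3, had an unadjusted p under 0.05 by edgeR, as did 4947 of the 17709 genes tested. Counts at an unadjusted p under 0.05 given below for other lists stand beside that same background. DESeq2 and limma-voom called only Pdia3 of the members, where they called 19.1% and 6.04% of all genes. Fitted log2 fold changes were nevertheless positive for 29 of 31 members, with a median of 0.54, beside 50.9% positive and a median of 0.02 over all genes tested. The 2 negative members were Cd1d1, a class I-like gene that presents lipids, and Ctss, the lysosomal protease cathepsin S. Leaving out double sample 1 brought the count of positive members to 19 of 31 and the median to 0.14, with 0 members called against 1.69% of all genes. Leaving out double sample 2 gave 30 positive members, a median of 1.25 and 5 called members (Pdia3, Calr, Ciita, H2-DMa and H2-DMb1, all higher in the triple samples), in a fit that called 29.5% of all genes. The estimates were thus larger against double sample 1 than against double sample 2.

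**Figure D1:**
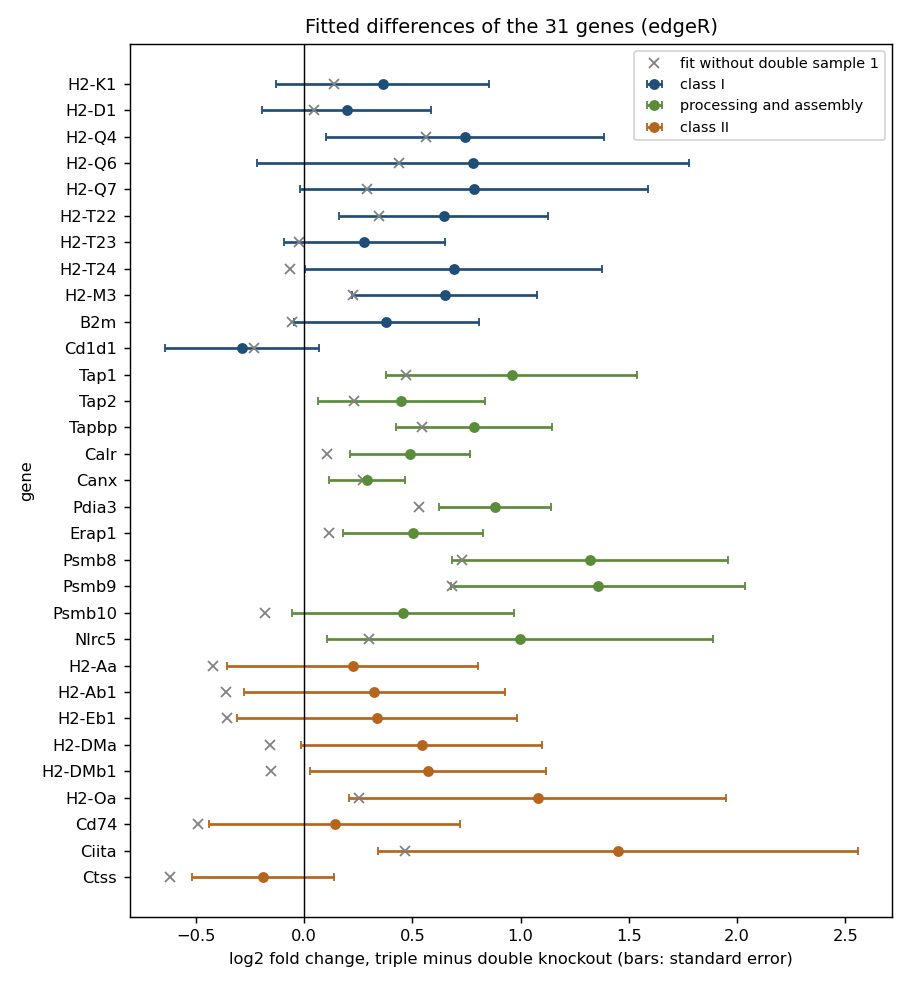
Fitted log2 fold changes of the 31 genes, triple minus double knockout, with the gene on the vertical axis; points and bars are the edgeR estimate and its standard error over 2 and 6 samples, coloured by class, and crosses are the estimates without double sample 1. Of the 31 points, 29 lie above 0, and 19 crosses do; the 9 class II genes have only 2 crosses above 0.

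Among class I heavy chains, the classical genes H2-K1 and H2-D1 present peptides to CD8+ T cells. H2-K1 (chromosome 17, 33996017 to 34000333, minus strand) stood at 464 and 639 CPM in double knockouts 1 and 2, against 851, 548, 343, 730.5, 1345 and 436 CPM in triple knockouts 1 to 6. The lowest and the highest of the 8 samples were both triple knockouts, samples 3 and 5, and both double samples lay within their range. The log2 fold change was 0.36 ± 0.49 (SE, adjusted p = 0.657 by edgeR). H2-D1 (chromosome 17, 35262730 to 35267499, plus strand), with 633 and 774 CPM in the double knockouts and 906, 678, 457, 871, 1353 and 568 CPM in the triple samples, had the same order of the triple samples. The ratio of H2-K1 to H2-D1 ran only from 0.733 to 0.994 over the 8 samples. B2m (chromosome 2, 122147686 to 122153083, plus strand), which encodes beta-2-microglobulin, stood at 504 and 1035 CPM in the double knockouts, against 1308, 796, 589.8, 1188, 1439 and 685 CPM in the triple samples. Here double sample 1 was the lowest of the 8, and triple sample 5 again the highest (log2 fold change 0.38 ± 0.43, adjusted p = 0.586 by edgeR). Per kilobase of exon, B2m was the most abundant of the 31 genes, with a mean of 1097 CPM per kb, beside 302 for H2-D1 and 228 for H2-K1.

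Of the non-classical class I genes, most of which lie in the Qa and T regions of the same complex, H2-Q4, H2-Q6 and H2-Q7 spread more widely over the triple samples than H2-K1 did, and the others did not. H2-Q6 (chromosome 17, 35424850 to 35430055, plus strand) stood at 30.5 and 50.7 CPM in the double knockouts, against 136, 25.5, 8.15, 65.6, 157 and 25.7 CPM in the triple knockouts, a 19.3-fold range within 1 genotype. Its standard deviation over the triple samples was 1.64 on the log2 CPM scale, the widest of the 31 genes, followed by 1.26 for both H2-Q7 and Nlrc5. Over all members the median of that standard deviation was 0.65, against 0.36 over all genes tested. H2-Q7 spanned 11.9 to 112 CPM, H2-Q4 44.7 to 298 CPM, and H2-T22 60.8 to 199.5 CPM in the triple samples, and H2-T23, the Qa-1 gene read by NKG2 receptors of natural killer cells, spanned 58.4 to 163 CPM. H2-M3, which presents formylated peptides, spanned 16.2 to 44.3 CPM. H2-T24 was scarce, at 1.34 and 6.93 CPM in the double knockouts and 3.56 to 12.7 CPM in the triple samples. Cd1d1 (chromosome 3), at 7.89 and 7.29 CPM and 4.30 to 9.78 CPM, departed from the rest: it was the one class I gene that was not lowest in triple sample 3 among the triple samples. Log2 fold changes of the 11 class I genes ran from -0.29 to 0.78 with a median of 0.64, and the median was 0.14 without double sample 1. Several class I genes are near-identical in sequence, so that the split of reads between H2-Q6 and H2-Q7, for instance, is uncertain.

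Genes of peptide supply were, like most class I genes, highest in triple sample 5 or 1. Tap1 (chromosome 17, 34187553 to 34197225, plus strand), a subunit of the peptide transporter, stood at 31.3 and 71.0 CPM in the double knockouts, against 129.97, 66.9, 41.3, 119, 178 and 61.2 CPM in the triple samples (log2 fold change 0.96 ± 0.58, adjusted p = 0.308 by edgeR). Double sample 1 lay below all 6 triple samples, and double sample 2 lay within them. Its partner Tap2 spanned 47.1 to 132 CPM over the 8 samples, and Erap1, which trims peptides in the endoplasmic reticulum, spanned 33.5 to 89.6 CPM. Nlrc5 (chromosome 8, 94434356 to 94527272, plus strand), the transactivator of class I genes, stood at 9.31 and 38.4 CPM in the double knockouts, against 95.8, 29.4, 11.7, 61.8, 72.5 and 14.8 CPM in the triple samples. Triple samples 1, 5 and 4 were the highest and triple samples 3 and 6 lay close to double sample 1 (log2 fold change 1.00 ± 0.89, adjusted p = 0.486 by edgeR). Nlrc5 spanned 10.3-fold over the 8 samples, against 3.93-fold for H2-K1 and 2.85-fold for B2m, and the ratio of H2-K1 to Nlrc5 went from 8.88 in triple sample 1 to 49.9 in double sample 1.

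Immunoproteasome subunits, which replace constitutive subunits when cells meet interferon, had positive estimates but no call, larger for Psmb8 and Psmb9 than for Psmb10. Psmb8 (chromosome 17, 34197721 to 34201454, plus strand) stood at 23.6 and 69.6 CPM in the double knockouts, against 144, 85.0, 49.4, 157, 202 and 61.7 CPM in the triple samples. Double sample 1 lay below every other sample, and double sample 2 was between triple samples 6 and 2 (log2 fold change 1.32 ± 0.64, adjusted p = 0.212 by edgeR). Psmb9 had a log2 fold change of 1.36 ± 0.68 (adjusted p = 0.226) and Psmb10 one of 0.45 ± 0.51 (adjusted p = 0.587), both by edgeR. The constitutive counterparts had negative estimates: Psmb5 stood at 82.5 and 22.7 CPM in the double knockouts and 25.5 to 36.1 CPM in the triple samples (log2 fold change -0.84 ± 0.39, adjusted p = 0.194 by edgeR), and Psmb6 had an estimate of -0.62 ± 0.26 (adjusted p = 0.157). The ratio of Psmb8 to Psmb5 was 0.286 and 3.07 in double samples 1 and 2, and ran from 1.80 to 7.65 in the triple samples. The ratio of Psmb9 to Psmb6 was 0.029 and 0.232 in the double samples and 0.162 to 0.651 in the triple samples, and that of Psmb10 to Psmb7 was 0.086 and 0.629, and 0.365 to 1.20. In all 3 ratios double sample 1 was the lowest of the 8, double sample 2 fell within the triple samples, and triple sample 5 was the highest. Of the 14 listed genes of the constitutive proteasome and its activators, 0 were called, 3 had an unadjusted p under 0.05, and 2 had a positive estimate (8 of 14 without double sample 1). In double sample 2, Psmb5 lay below every triple sample.

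**Figure D2:**
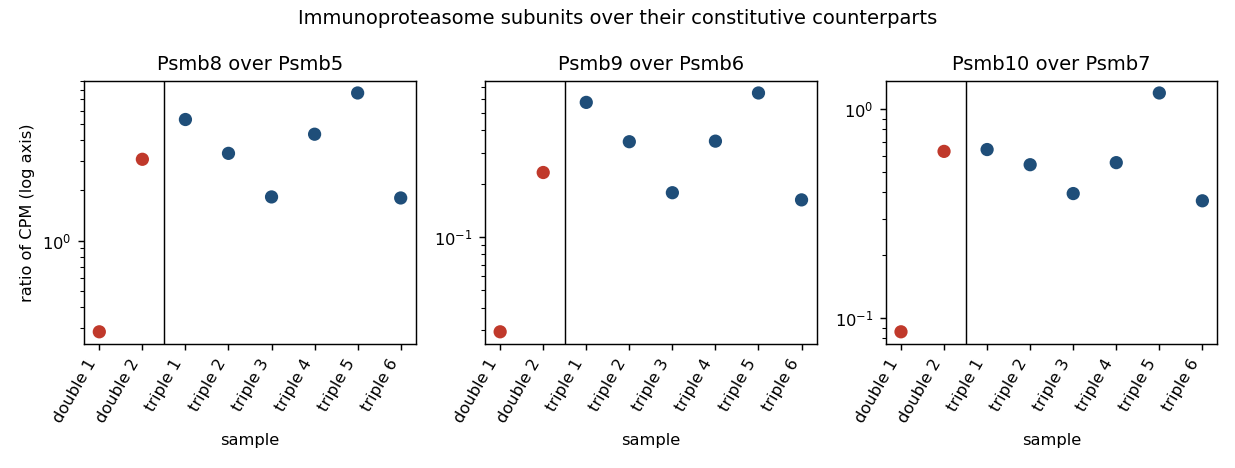
Ratio of the CPM of each immunoproteasome subunit to that of its constitutive counterpart, on log axes, in 2 double knockout (red) and 6 triple knockout samples (blue). Double sample 1 lies lowest in each panel (0.286, 0.029 and 0.086) and triple sample 5 highest (7.65, 0.651 and 1.20).

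Pdia3, Canx and Tapbp, chaperone genes of class I assembly, were the only members whose groups did not overlap. Pdia3 (chromosome 2, 121413775 to 121438687, plus strand), which encodes the disulfide isomerase ERp57, stood at 362 and 626 CPM in the double knockouts (mean 494 ± 187, SD) and at 1103, 877, 811, 870.4, 871 and 923 CPM in the triple samples (mean 909 ± 102, SD). Every triple sample was above both double samples, and the log2 fold change was 0.88 ± 0.26, with an adjusted p of 0.0694 by edgeR. By exact permutation p was 0.0357 (2-sided, not adjusted for the number of genes), the smallest that a design of 2 against 6 can give. The adjusted p was 0.00488 in DESeq2 and 0.0444 in limma-voom. Without double sample 1 the edgeR estimate was 0.53, with an adjusted p of 0.335. Canx, the lectin chaperone calnexin, stood at 495 and 502 CPM in the double knockouts, against 563 to 701 CPM in the triple knockouts, a log2 fold change of 0.29 ± 0.17 (adjusted p = 0.306 by edgeR). Its exact permutation p was the same as that of Pdia3, 0.0357 (2-sided, not adjusted). Tapbp, which encodes tapasin, stood at 118 and 168 CPM and at 172 to 434 CPM (log2 fold change 0.78 ± 0.36, adjusted p = 0.196 by edgeR). For Tapbp, double sample 2 (168 CPM) lay just below triple sample 3 (172 CPM). Groups failed to overlap for 3 of 31 members, while 24.1% of all genes tested did so. Calr, the chaperone calreticulin, stood at 457 and 843 CPM in the double knockouts and 710.2 to 1102 CPM in the triple samples, so that double sample 2 lay above triple sample 4. Canx, Pdia3 and Calr were also the 3 members with the narrowest spread over the triple samples, at 0.11, 0.15 and 0.21 on the log2 CPM scale.

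Class II genes had the lowest median estimate of the 3 classes, and theirs alone turned negative without double sample 1. H2-Aa (chromosome 17, 34282744 to 34287827, minus strand), the alpha chain of I-A, stood at 152 and 522 CPM in the double knockouts, against 232, 391, 374, 329.8, 809.7 and 224 CPM in the triple samples (log2 fold change 0.22 ± 0.58, adjusted p = 0.829 by edgeR). Its beta chain H2-Ab1 (chromosome 17, 34263209 to 34269418, plus strand) stood at 102 and 402 CPM and at 222, 313, 257, 239, 673 and 187 CPM. For both chains double sample 2 was second only to triple sample 5, and double sample 1 was the lowest. H2-Eb1 (chromosome 17, 34305877 to 34316199, plus strand), the beta chain of I-E, stood at 112 and 449 CPM in the double knockouts, against 205, 363, 314, 250.03, 791 and 200.4 CPM in the triple samples (log2 fold change 0.34 ± 0.65, adjusted p = 0.763 by edgeR). The annotated pseudogene of its partner chain, H2-Ea-ps, had no count in any of the 8 samples. The ratio of H2-Ab1 to H2-Aa stayed between 0.671 and 0.954. Cd74, the invariant chain, stood at 357 and 1169 CPM in the double knockouts, against 571, 829, 679, 654, 1813 and 501 CPM in the triple samples, and had the second highest level per kilobase of exon, with a mean of 489 CPM per kb. Its estimate was 0.14 ± 0.58 (log2 fold change, adjusted p = 0.896 by edgeR). The peptide-exchange genes H2-DMa and H2-DMb1 stood at 9.03 and 6.96 CPM in double sample 1, at 37.8 and 32.1 CPM in double sample 2, and at 19.2 to 61.6 CPM and 18.2 to 48.5 CPM in the triple samples. H2-Oa, whose product restrains H2-DM, was the scarcest of the 31 genes per kilobase of exon and ran from 0.202 CPM in double sample 1 to 4.28 CPM in triple sample 5. Ctss, at 309 and 626 CPM in the double knockouts and 297 to 538 CPM in the triple samples, was the one member highest in a double sample. The median log2 fold change of the 9 class II genes was 0.34. It was -0.36 without double sample 1, with 2 of 9 positive, 1.68 without double sample 2 and -0.05 without triple sample 5.

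Ciita (chromosome 16, 10488178 to 10527564, plus strand), the transactivator that switches class II genes on, had the widest range of the 31 genes. It stood at 0.243 CPM (6 counts) in double sample 1 and at 13.1 CPM in double sample 2, and at 23.1, 19.6, 12.9, 10.9, 35.1 and 8.07 CPM in the triple samples. Only double sample 1 stood apart, 144-fold below triple sample 5, and double sample 2 lay between triple samples 3 and 2. The log2 fold change was 1.45 ± 1.11 (adjusted p = 0.415 by edgeR), and 0.47 without double sample 1. The class II chains did not share that range: the ratio of H2-Ab1 to Ciita was 420 in double sample 1 and 9.60 to 30.6 in the other 7 samples. Ciita overlaps Dexi, whose counts over the 8 samples were of like size (3470 against 3762) and whose level in double sample 1, 26.8 CPM, was the highest of the 8. Since the strand setting of the counting is not known, reads from the stretches that such neighbours share cannot be told apart. The same holds for Tap1 and Psmb9, which overlap at their ends, and for Erap1 and Cast. Tapbp and Zbtb22 overlap on the same strand, so that no strand setting would separate reads from their shared stretch.

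**Figure D3:**
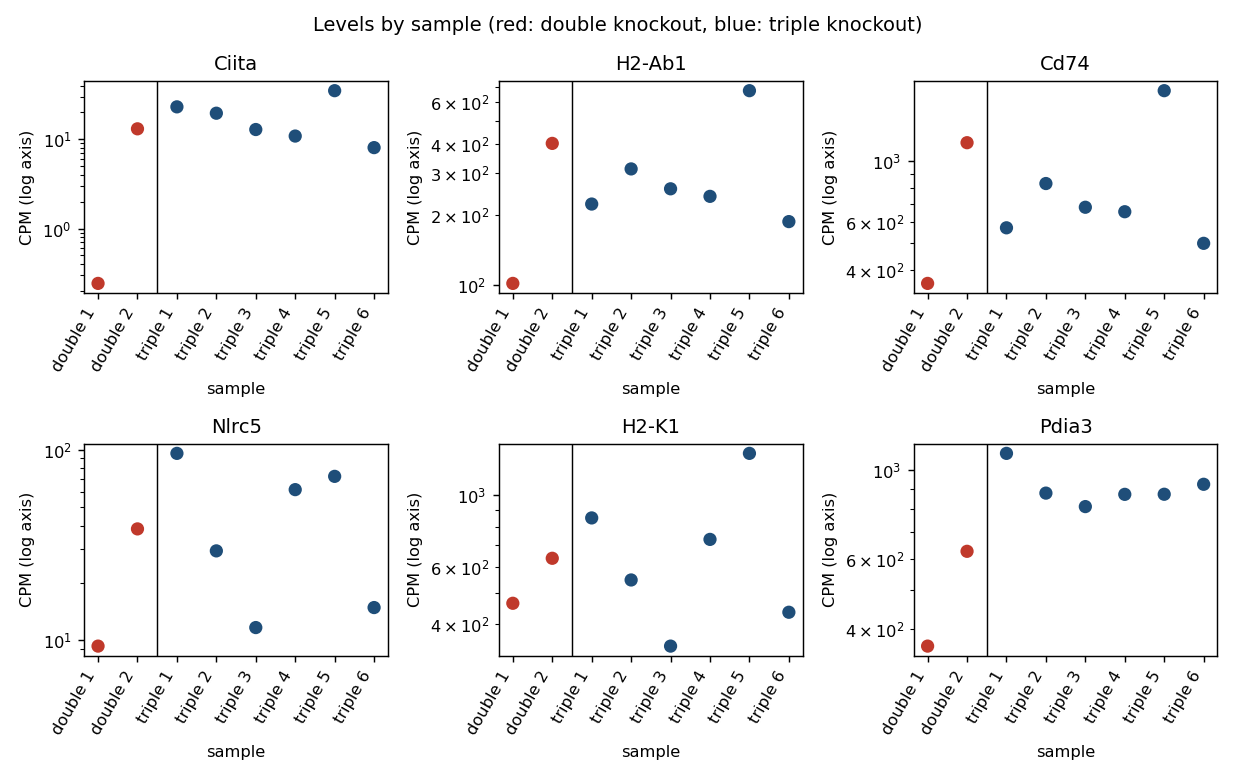
Levels of 6 genes in CPM, on log axes, in 2 double knockout (red) and 6 triple knockout samples (blue), by sample. Ciita and the class II genes H2-Ab1 and Cd74 are lowest in double sample 1 and highest in triple sample 5, Nlrc5 and H2-K1 are low in triple samples 3 and 6, and Pdia3 separates the groups, from 362 and 626 CPM to at least 811 CPM.

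A different order of the samples recurred among the class I genes than among the class II genes. Among class I genes, triple sample 3 was the lowest triple sample for 10 of 11, and triple samples 1, 4 and 5 were the 3 highest of all 8 samples for 8 of 11. Processing genes followed this order in part: triple sample 3 was the lowest triple sample for 8 of 11, and triple samples 1, 4 and 5 led for 6 of 11 (Tap1, Tap2, Tapbp, Psmb8, Psmb9 and Nlrc5). Among class II genes, triple sample 6 was the lowest triple sample and triple sample 5 the highest for 9 of 9, and double sample 2, triple sample 2 and triple sample 5 were the 3 highest samples for 7 of 9, with Ciita and Ctss as the exceptions. Triple sample 5 was the highest of the 8 samples for 25 of 31 members, against 13.8% of all genes tested, and double sample 1 the lowest for 22 of 31, against 32.4%. Double sample 2 lay within the range of the triple samples for 27 of 31 members.

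**Figure D4:**
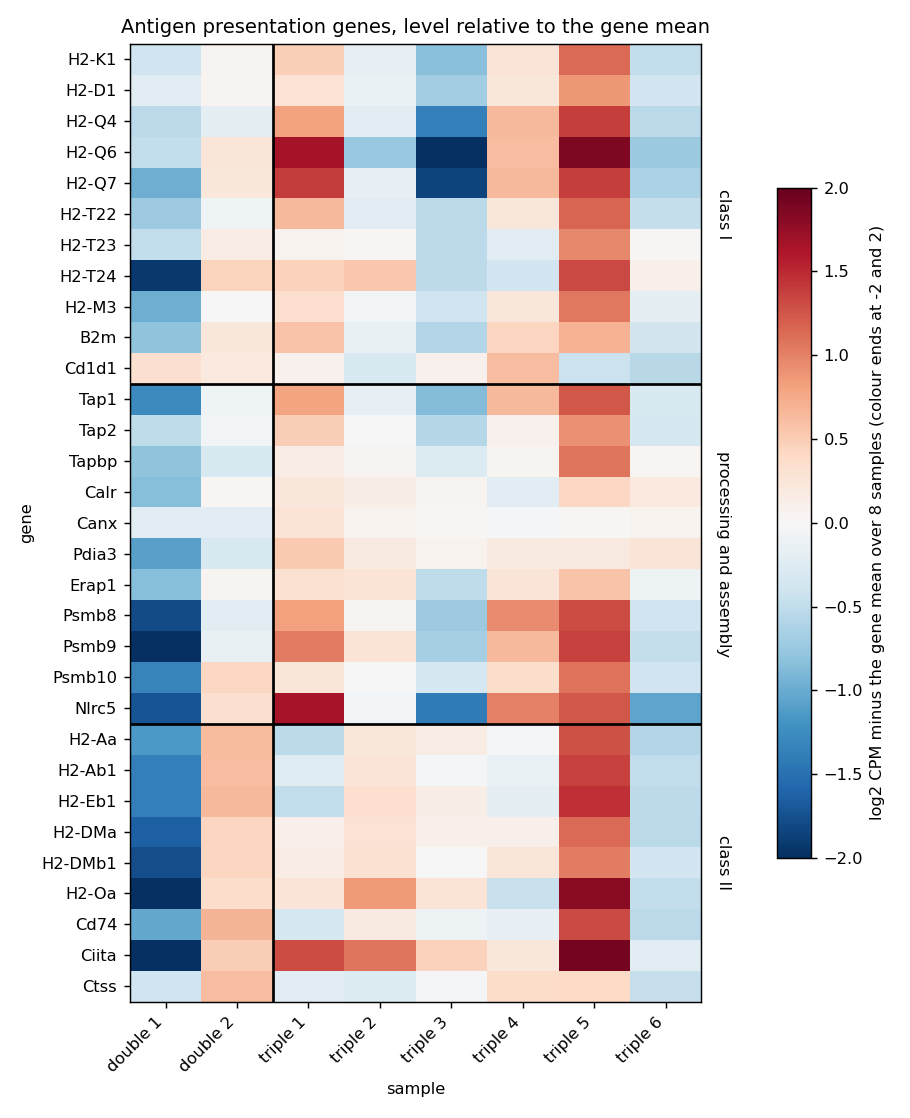
Level of each of the 31 genes (rows, grouped by class) in each of the 8 samples (columns), as log2 CPM (no prior count) minus the gene's mean over the samples, with colours ending at -2 and 2. Double sample 1 is mostly blue and triple sample 5 mostly red in all 3 blocks, while triple sample 3 is lowest of the triple samples for 10 of 11 class I genes and triple sample 6 for 9 of 9 class II genes.

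Interferon-induced genes outside antigen presentation shared much of the class I order. Of 28 such genes, triple sample 3 was the lowest triple sample for 23, and triple samples 1, 4 and 5 were the 3 highest triple samples for 23 and the 3 highest of all 8 samples for 15. None of the 28 was called and none had an unadjusted p under 0.05 by edgeR. Their median log2 fold change was 0.83, and 0.11 without double sample 1. Isg15, a ubiquitin-like protein, stood at 10.0 and 56.3 CPM in the double knockouts and 23.7 to 88.2 CPM in the triple samples, and Ifit1, which binds viral RNA, at 14.9 and 82.9 CPM and 40.4 to 108 CPM. On the mean of the centred log2 levels, the 28 genes stood at 1.14, 0.60 and 1.24 in triple samples 1, 4 and 5 and at -0.98 in triple sample 3, and the 11 class I genes at 0.61, 0.30, 1.03 and -0.87. Of 11 tested genes of interferon receptors and signalling, 1 rose in the triple samples: Ifngr2, a chain of the interferon gamma receptor, from 36.9 and 64.6 CPM to 96.2 to 111 CPM (log2 fold change 1.05 ± 0.22, adjusted p = 0.0273 by edgeR). Of 17 transcription factors that act on MHC genes, 1 rose: Spi1, the myeloid factor PU.1, from 23.2 and 45.5 CPM to 64.9 to 96.1 CPM (log2 fold change 1.27 ± 0.28, adjusted p = 0.0309 by edgeR). In both lists 1 called gene is a share near or below the 8.35% of all genes tested, and both calls were lost without double sample 1 (adjusted p = 0.0913 and 0.144).

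**Figure D5:**
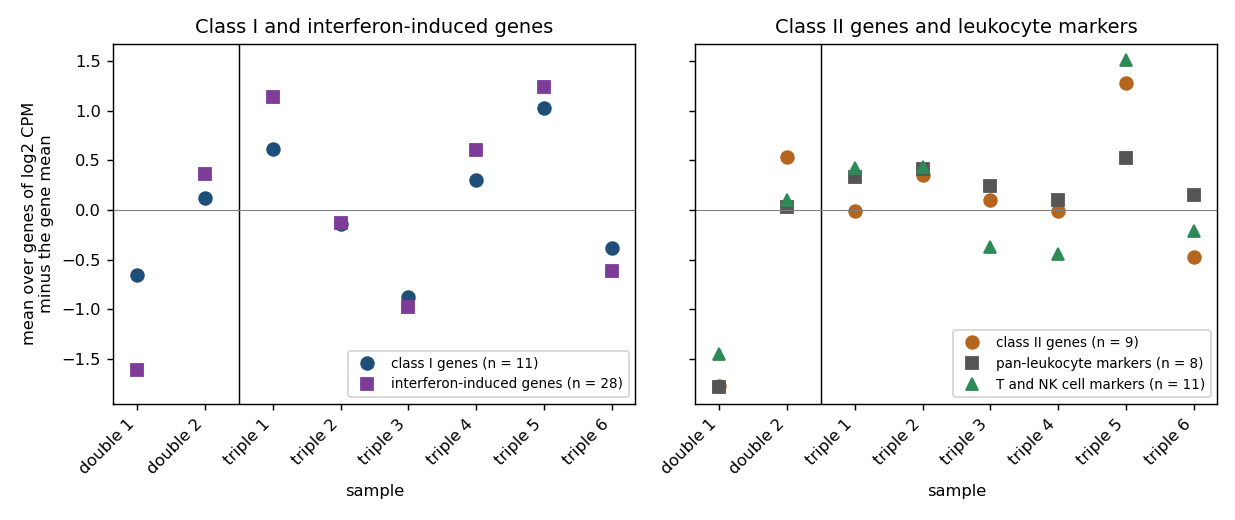
Mean over the genes of a list of log2 CPM minus the gene's mean, by sample; left, class I (n = 11) and interferon-induced genes (n = 28); right, class II genes (n = 9), pan-leukocyte markers (n = 8) and markers of T and NK cells (n = 11). On the left both lists are high in triple samples 1, 4 and 5 and low in triple sample 3 and double sample 1; on the right all 3 lists are lowest in double sample 1 and highest in triple sample 5.

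Leukocyte markers moved with the class II genes in part. All 8 pan-leukocyte markers were lowest in double sample 1, and their summed level was 254 CPM there, 745 CPM in double sample 2 and 825 to 1042 CPM in the triple samples. Macrophage and monocyte markers summed to 1629 and 3362 CPM in the double knockouts and 2864 to 4734 CPM in the triple samples, with triple sample 6 the lowest triple sample for 10 of 16 and triple sample 5 the highest for 7 of 16. Markers of T and NK cells were highest in triple sample 5 for 12 of 12 and summed to 76.3 CPM there, against 12.8 to 42.3 CPM elsewhere. Dendritic cell markers summed to 27.9 and 73.5 CPM in the double knockouts and 30.3 to 90.7 CPM in the triple samples. In double sample 1, 3 of the 10 dendritic markers had no count. B cell markers summed to 66.3 and 70.4 CPM and to 31 to 449.9 CPM. Neutrophil markers instead had their highest sum in double sample 1. It was 76.1 CPM there, 18.6 CPM in double sample 2 and 15.8 to 37.5 CPM in the triple samples. Of the 6 neutrophil markers tested, 3 had a positive estimate. By edgeR none of the 10 dendritic, 7 B cell and 11 T and NK cell markers tested was called, with 4, 1 and 1 at an unadjusted p under 0.05. The ratio of H2-Ab1 to Ptprc was 4.07 and 3.53 in the double samples, 1.47 to 2.74 in 5 triple samples and 7.96 in triple sample 5, and that of Cd74 to Ptprc was 14.3 and 10.3, 3.78 to 7.23, and 21.5. Relative to Ptprc, then, H2-Ab1 and Cd74 in double sample 1 were not low, and those of triple sample 5 were above all others. Relative to the macrophage gene C1qa, H2-Ab1 was highest in double sample 2 (0.929), ahead of triple sample 5 (0.903), with 0.491 in double sample 1 and 0.399 to 0.643 in triple samples 1, 2, 3, 4 and 6. The ratio of Ciita to Ptprc was 0.0097 in double sample 1 and 0.109 to 0.415 in the other 7. Of the 16 macrophage and monocyte markers, Cd68 and Itgam rose in the triple samples (log2 fold changes 1.26 ± 0.27 and 1.89 ± 0.46, adjusted p = 0.0279 and 0.043 by edgeR). Of the 8 pan-leukocyte markers, Rac2, a GTPase of blood cells, rose (1.96 ± 0.46, adjusted p = 0.0369 by edgeR). These calls stand beside 8.35% of all genes tested. Without double sample 1 the estimates for Cd68, Itgam and Rac2 were 0.94, 1.25 and 1.35. The part of leukocyte content in the levels of the 31 genes was not tested.

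Other markers in the samples also differed between the groups. Embryonic muscle markers fell for 10 of 11 genes, against 8.35% of all genes called in either direction, and for 4 without double sample 1, and their summed level was 7504 and 2135 CPM in the double knockouts and 8.16 to 165 CPM in the triple samples. The fibroblast marker Pdgfra rose (log2 fold change 1.83 ± 0.41, adjusted p = 0.0322 by edgeR), and the endothelial receptor gene Tek fell (-1.83 ± 0.48, adjusted p = 0.0499 by edgeR). Each was the only called gene of its list, of 8 and 10, beside 8.35% of all genes tested. With the code in the sample descriptions as a term, Pdgfra was not called (adjusted p = 0.0524 by edgeR). Its estimate was 2.05 without double sample 1 and 1.65 without double sample 2. Without double sample 1 the estimate for Tek was -0.43 (adjusted p = 0.747 by edgeR). Neutrophil, mesothelial and adult muscle lists had 0 called members by edgeR of 6, 11 and 11 tested, with 2, 2 and 3 at an unadjusted p under 0.05. The part of these cell types in the levels of the 31 genes was not tested.

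Endosomal and other neighbours of the pathway were called in a few cases, where 8.35% of all genes tested were called. Of 12 endosomal proteases and class II turnover genes, Ifi30, the thiol reductase GILT that unfolds antigens, rose from 57.7 and 99.4 CPM to 137 to 218 CPM (log2 fold change 1.19 ± 0.27, adjusted p = 0.0334 by edgeR). March8, a ubiquitin ligase that removes class II and other proteins from the surface, fell by 0.69 ± 0.18 on the log2 scale (adjusted p = 0.0476 by edgeR), from 149.5 and 109 CPM to 65.5 to 89.3 CPM. March8 was not called by edgeR with upper-quartile scaling (adjusted p = 0.0678) or by limma-voom (adjusted p = 0.0656). Of 11 costimulatory and inhibitory ligands, Pvr, a ligand of the receptors DNAM-1 and TIGIT, fell by 0.87 ± 0.21 on the log2 scale (adjusted p = 0.0397 by edgeR). None of 17 tested other MHC genes was called, with H2-K2 at 0.16 ± 0.47 and H2-Q1 at 0.33 ± 0.58 (log2 fold changes, adjusted p = 0.855 and 0.737 by edgeR), and 4 had an unadjusted p under 0.05. None of 13 genes of peptide trimming and quality control in the endoplasmic reticulum was called either, with 3 at an unadjusted p under 0.05. Lnpep and Npepps, both aminopeptidases, stood at -0.66 ± 0.29 and -0.13 ± 0.22 (log2 fold changes, adjusted p = 0.174 and 0.724 by edgeR). Up to 3 called genes of smallest p were taken from each list, 13 in all, among them the embryonic muscle genes Cdh15, Myf5 and Myh3. Of the 13, 8 or 9 lost the call without any 1 triple sample. Cdh15, Myf5 and Myh3 kept it in those fits. Without double sample 1 the log2 fold changes of these muscle genes were -7.41, -6.53 and -6.71 by edgeR. Those of Ifi30, March8 and Pvr were then 0.85, -0.45 and -0.76.

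A code in the sample descriptions, whose meaning the labels do not give, was SN930 for double 1 and triple 4, 5 and 6. Double 2 and triple 1, 2 and 3 each had a code of their own (SN931, SN933, SN934 and SN935). The labels do not make these a group, and they were pooled here as the other codes. As a term in a fit, the code was likewise SN930 against the other codes. Within SN930, 30 of 31 members had a positive estimate and 1, Pdia3, was called, against 11.8% of all genes. Within the other codes, 16 of 31 were positive and 0 were called by edgeR, with 1 at an unadjusted p under 0.05, against 0.00552% of all genes. Each of these fits rests on 1 double sample, whose spread is taken from the triple samples.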

How the data were processed

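The deposited tables, 1 per sample, hold raw read counts that the authors made for each gene. The submitters' processing notes name HTSeq and DESeq2 and the builds mm10 and GRCm38. Aligner, annotation release and strand setting: not given in the sources used here. Symbols were matched for 52403 of 52636 genes, and 49993 had the coordinates of GENCODE M21 on GRCm38, from which exon lengths were taken. Coordinates are printed counted from 1. After filterByExpr and TMM scaling, counts were tested with edgeR 4.0.16 (quasi-likelihood, triple minus double, all 8 samples, no covariate) in R 4.3.3, with Benjamini-Hochberg adjustment over 17709 genes and calls at an adjusted p under 0.05. CPM use TMM factors, log2 levels a prior count of 2. The fits were tested on simulated data. Members, lists and tests were chosen with earlier results of these data known. The naming rule takes all 31 members, and from each other list up to 3 called genes of smallest p. From a pathway list with none called it takes the first 2 tested. Alternatives were DESeq2 1.42.0, limma-voom (limma 3.58.1), RLE and upper-quartile scaling, other filters, robust dispersion, the description code, and leaving out each sample. Upstream sequences are RefSeq's. Replicate numbers follow accession order and pair no samples.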

Additional observations from a re-analysis of the deposited data

Results flagged for a closer look

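Within the 6 triple knockout samples, the gap in CPM from the highest sample to the next was divided by the group's range. In 9 of the 31 genes the highest sample exceeded Dixon's 95% critical value for 6 samples by this ratio. For normally distributed values, chance flags about 1 in 20 groups. Here 31 groups were tested, and the genes are not independent. The ratio was not computed on log2 levels, where a high sample stands out less. Triple sample 5 was that sample for 8 of the 9. Among class II genes it stood at 809.7 CPM for H2-Aa (the next triple sample at 391), 673 CPM for H2-Ab1 (313), 791 CPM for H2-Eb1 (363), 1813 CPM for Cd74 (829), 61.6 CPM for H2-DMa (34.2) and 48.5 CPM for H2-DMb1 (29.4). It also stood at 163 CPM for H2-T23 (87.7) and 434 CPM for Tapbp (229.9). Triple sample 1 stood at 701 CPM for Canx (607).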

How the results depend on the processing

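No paired analysis was possible because the replicate numbers are only names in accession order. The count of all called genes, 1478, was 3380 in DESeq2, 962 with the description code as a term and 1 in samples of the other codes, and 315 to 5579 when each sample was left out in turn. Members called, 0, became 1 in DESeq2, limma-voom and SN930 samples, each time the processing gene Pdia3, and ran from 0 to 5 over the fits without a sample (processing 0 to 2, class II 0 to 3, class I 0). The median log2 fold change of class I, 0.64, was 1.21 in SN930 and -0.16 in the other codes. That of class II, 0.34, was 1.91 in SN930, -0.61 in the other codes and -0.36 to 1.68 without a sample, the lowest without double sample 1 and the highest without double sample 2. That of processing genes, 0.78, was 1.32 in SN930, 0.22 in the other codes and 0.30 to 1.35 without a sample. The cause was not tested. RLE and upper-quartile scaling, both other filters, robust dispersion and the description code as a term left 0 members called and 29 positive. Each fit that left out a sample repeated the filter on low counts. The same alternatives for the 13 called genes of other lists were added after seeing the data: 0 to 2 lost their call under another scaling, filter, dispersion or test, and 5 with the description code as a term.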
